A study of Homo sapiens with 4 samples.

Results

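The genes described here are ISG15, whose promoter CpG island (CGI) was the target of the sgRNA in this experiment, the enzymes that attach ISG15 to proteins and remove it (UBA7, UBE2L6, HERC5 and USP18), and the neighbours of ISG15 on chromosome 1 (HES4, AGRN, PERM1, PLEKHN1 and KLHL17). They were chosen by name, and make up 10 of the 19881 protein-coding genes analyzed. Cells of the human line HEK293, which derives from embryonic kidney, were transiently transfected with dCas9-SunTag, with the C-terminal parts of DNMT3A and DNMT3L joined to each other and to an antibody that binds the SunTag (Ab-3A3L, wild type DNMT3A), and with the ISG15 sgRNA. After 3 days, cells carrying all plasmids were sorted, and methylated DNA was pulled down with GST-MBD2 and sequenced (MBD-seq). The data are the 12864 peaks that were new in the wild type library compared with untreated cells, in hg19 coordinates. The series holds 1 library each of untreated cells, wild type cells and cells with either of a pair of DNMT3A mutants. The libraries of untreated and mutant cells were not analyzed here, and with 1 library per condition no difference could be set against replicate error. A gene was counted as having a new peak if a peak overlapped its body or the 1000 bp on either side of any annotated start site by at least 1 bp.

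ISG15 is a ubiquitin-like protein whose gene is strongly induced by type I interferon. UBA7, the activating enzyme (E1), charges ISG15, UBE2L6, the conjugating enzyme (E2), carries it, and HERC5, the main human ligase (E3), transfers it to newly made proteins, while USP18 cuts it off again and also dampens signalling from the interferon receptor. The enzymes are themselves interferon-induced. DNMT3A methylates the cytosine of CpG dinucleotides, DNMT3L stimulates it, and MBD-seq signal grows with the number of methylated CpGs in a fragment, so that the CpGs of a promoter are both the substrate and the readout.

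The target site and the promoters of ISG15, UBA7, UBE2L6 and HERC5 are shown to let the CpGs of each be seen. The sgRNA site lies on the minus strand at chr1:948878-948897, upstream of the start codon in exon 1 of the canonical ISG15 transcript, and begins 1 bp downstream of its start site at 948877. The capitals mark the PAM, at chr1:948875-948877.
ISG15 target site: gttcgctgcctctcagccgcCGG

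In the next sequences, read from hg19, CpGs are in capitals. Each is the 170 bp before a start site on the strand of the gene, and none overlaps an annotated exon. ISG15 (chr1:948707-948876, plus strand) has 12 CpGs in this stretch and UBA7 (chr3:49851387-49851556, minus strand) has 1. UBE2L6 (chr11:57335146-57335315, minus strand) has 26 and HERC5 (chr4:89378100-89378269, plus strand) has 10.
ISG15: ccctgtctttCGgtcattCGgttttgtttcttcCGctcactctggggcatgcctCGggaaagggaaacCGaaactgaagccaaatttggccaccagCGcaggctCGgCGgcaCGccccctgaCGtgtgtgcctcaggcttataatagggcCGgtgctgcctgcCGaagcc
UBA7: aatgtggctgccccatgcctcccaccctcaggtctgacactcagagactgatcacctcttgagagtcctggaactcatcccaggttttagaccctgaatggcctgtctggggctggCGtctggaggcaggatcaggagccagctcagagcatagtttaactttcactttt
UBE2L6: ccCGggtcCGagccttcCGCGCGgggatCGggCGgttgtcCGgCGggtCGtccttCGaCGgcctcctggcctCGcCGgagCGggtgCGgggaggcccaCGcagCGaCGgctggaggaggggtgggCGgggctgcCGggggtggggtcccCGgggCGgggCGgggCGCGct
HERC5: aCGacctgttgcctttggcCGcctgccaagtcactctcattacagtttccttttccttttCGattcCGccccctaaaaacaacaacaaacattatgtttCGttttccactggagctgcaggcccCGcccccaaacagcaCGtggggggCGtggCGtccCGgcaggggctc

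New peaks were listed at 5 of the 10 genes, namely ISG15, UBE2L6, HERC5, USP18 and HES4, and at none of the annotated start sites or bodies of UBA7, AGRN, PERM1, PLEKHN1 and KLHL17. The 95% exact binomial interval of this share, 18.7% to 81.3%, includes the 48.5% of all protein-coding genes that had a new peak by the same rule, and the count is not a result about these genes as a group. At the canonical start site alone, 4 of the 10 had a peak (UBE2L6, HERC5, USP18 and HES4), against 42.1% of all protein-coding genes. ISG15 was not among them. Its peaks lie at start sites 12359 bp and 12352 bp upstream, in the CGI that it shares with HES4. The 5 listed genes were reached by 5 different peaks, because a single wide peak covers both HES4 and the upstream start of ISG15, and a second peak was counted for ISG15 only. All of these peaks came within 399 bp of a start site of their gene. The nearest new peak to any start site of the other genes was 2546 bp away, at an internal start site of UBA7. When peaks below the median fold of the list were left out, 2 of the 10 genes remained (ISG15 and HES4), against 29.6% of all protein-coding genes. With a −log10 q of at least 10 it was 3 (ISG15, USP18 and HES4), against 28.9%.

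From the deposited fold and p-value of a peak, a background rate and a whole number of fragments at its summit follow by the formulas of MACS2, the peak caller in the submitters' processing notes. The rate is the largest of the control coverage near the summit, over 1000 bp or 10000 bp around it, or over the genome, scaled to the depth of the treated library. In each of the 12864 peaks it equaled the genome-wide rate or came from a whole number of control reads in such a window. Each read was worth 0.694 fragments, scaled from the length of the window to the fragment length of 253 bp. That the control was the untreated library is an inference from the description of the peaks as new. The median new peak had a fold of 7.45 (quartiles 5.44 and 10.04) and 18 fragments at its summit. At the genome-wide rate of 0.611, no fewer than 6 fragments were ever listed.

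The canonical ISG15 promoter had no new peak within 10000 bp of its start site. The CGI at this start site, at chr1:948671-948894, is 224 bp long with 19 CpGs. A second CGI at chr1:949330-949851, overlapping the coding part of the last exon, has 35. Neither overlapped a new peak. The nearest ones ended 11419 bp upstream and began 56127 bp downstream of the start site, which leaves a stretch of 67545 bp without a new peak. Stretches of this length were common, as 47.5% of the gaps between neighbouring new peaks of the genome were shorter. The list holds new peaks only, and how newness was decided is not given in the sources used here. A missing entry, at the target or elsewhere, is therefore not a measurement of methylation.

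With 79 CpGs in the 2001 bp around its start site, ISG15 is less CpG-rich than 61.8% of coding promoters. Among the 2043 coding promoters with 60 to 79 CpGs, 20.8% had a new peak (95% exact binomial interval 19.1% to 22.6%). ISG15 lies at the upper end of this class. Of the 1328 other promoters within 5 CpGs of its 79, 29.7% had one (27.2% to 32.2%). Of the 970 promoters whose largest CGI within 1000 bp had 30 to 40 CpGs (within 5 of the 35 of ISG15), 217 had one, or 22.4% (19.8% to 25.1%). Counted instead by the CGI that covers the start site itself, within 5 of the 19 CpGs of ISG15, the share was 12.1% of 207. This changes the CpG number matched as well as the CGI counted. Among the 82 other promoters with exactly 35 CpGs in their largest CGI, 15 had a peak. The highest folds of these were 12.4 at MFSD13A and 11.8 at PELO and ITGA1, which share a start site and a peak.

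GENCODE places further start sites of ISG15 at 936518 and 936525, from which transcripts run through 2 upstream exons into the same coding exon as the canonical one. These lie 1041 bp and 1048 bp from the canonical start site of HES4, a transcriptional repressor of the Hairy and Enhancer of split family, which runs in the opposite direction. HES4 and these ISG15 transcripts start in a CGI of 4023 bp with 449 CpGs (chr1:933388-937410), of which 92.1% was covered by new peaks. In the 2001 bp around the ISG15 start sites there were 198 CpGs at 936518, 197 at 936525 and 79 at the canonical one.

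The wide peak at chr1:933326-936607 covers all 4 HES4 start sites, the HES4 gene and the upstream ISG15 start sites. Its fold was 13.8, above 92.9% of the list, with a −log10 q of 25.02. At 3282 bp with 373 CpGs, it was the fifth widest of the 12864 peaks. The summit, at 933549, lies between annotated genes, 1928 bp from the canonical start site of HES4 in the direction of transcription and beyond its 3′ end. There were 27 fragments (95% exact Poisson interval 17.8 to 39.3) over a background rate of 1.04, which corresponds to 59 control reads in 10000 bp and allows no more than 1 control read at the summit itself. The second peak, at chr1:936924-937458, lies in the first intron of the upstream ISG15 transcripts, with a fold of 7.64 and 23 fragments (14.6 to 34.5) against a rate of 2.14. The 151 bp around each summit are given here on the plus strand to show how densely CpGs lie there, with CpGs in capitals, 20 at chr1:933474-933624 and 21 at chr1:937141-937291.
Wide peak: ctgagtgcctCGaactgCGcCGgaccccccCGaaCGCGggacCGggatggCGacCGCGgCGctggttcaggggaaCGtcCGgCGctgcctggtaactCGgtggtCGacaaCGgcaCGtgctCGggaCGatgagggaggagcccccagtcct
Second peak: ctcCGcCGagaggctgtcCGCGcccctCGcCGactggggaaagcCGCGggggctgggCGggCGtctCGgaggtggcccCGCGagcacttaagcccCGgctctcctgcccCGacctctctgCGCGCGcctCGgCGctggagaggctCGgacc

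**Figure D1:**
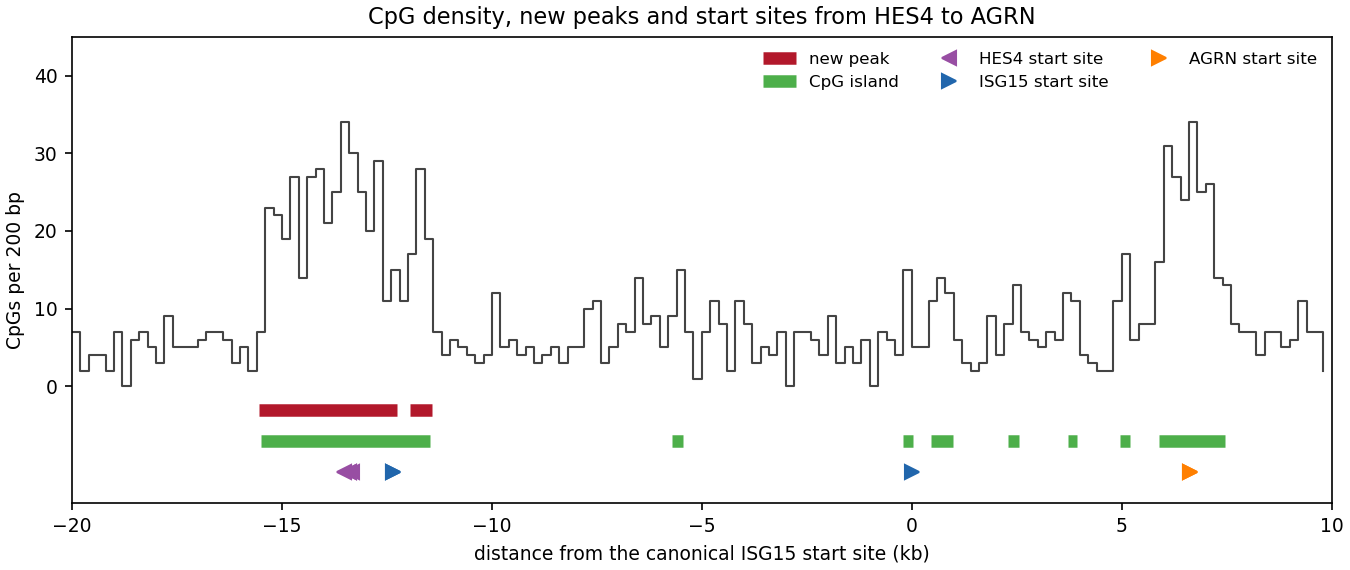
CpGs per 200 bp (line) against the distance from the canonical ISG15 start site in kb, with new peaks (red), CpG islands (green) and annotated start sites (arrowheads) below. Both new peaks lie in the island shared by HES4 and the upstream ISG15 start sites, and none lies at the canonical ISG15 start site, at 0, or at AGRN.

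Of the conjugation enzymes, UBA7 had no new peak and no CGI at any of its 11 start sites. Its canonical promoter, at chr3:49851386, had 28 CpGs in 2001 bp, and of the 2125 coding promoters with 20 to 39 CpGs, 0.988% had a new peak (0.613% to 1.51%). The other enzymes start in CGIs, and each had 1 new peak that covers the canonical start site.

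UBE2L6 carried a peak of 778 bp at chr11:57335036-57335813, with 90 CpGs, over 90.9% of its CGI of 97 CpGs. Its summit lies 41 bp upstream of the canonical start site at 57335145, inside the gene record but outside the canonical transcript. The peak had the largest number of fragments of all peaks at these genes, 40 (28.6 to 54.5), but also the highest background rate, 9.72, which corresponds to 14 control reads (7.65 to 23.5) within the fragment length of 253 bp. Its fold was 3.83, above 11.6% of the list. Of the 2666 coding promoters with 100 to 119 CpGs, as UBE2L6 with 110, 60.1% had a new peak.

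A peak of 588 bp was listed for HERC5 at chr4:89378134-89378721, with 70 CpGs, over 40.4% of a CGI of 142 CpGs. The summit lies 418 bp downstream of the start site at 89378270, in an intron. The fold of 3.40, above 8.72% of the list, came from 26 fragments (16.98 to 38.1) over a rate of 6.94, or 10 control reads (4.80 to 18.4) in 253 bp. In the class of 140 to 159 CpGs, to which HERC5 belongs with 158, 76.9% of 1742 promoters had a new peak.

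At USP18 the peak, chr22:18632613-18633040, was 428 bp wide with 39 CpGs and covered 64.9% of a CGI of 51 CpGs. The summit lies 99 bp upstream of the canonical start site at 18632937. The fold was 7.27, near the median of the list, from 17 fragments (9.90 to 27.2) over a rate of 1.47, which allows no more than 2 control reads at the summit. USP18 has 89 CpGs in 2001 bp, and 41.1% of the 2816 promoters with 80 to 99 had a new peak. The gene has copies on chromosome 22, the longest a match of 15188 bp at 97.2% identity that begins 9565 bp into the gene. No copy of at least 300 bp and 95% identity was found for the 2001 bp around the start site of USP18 or of any of the other 9 genes.

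The peaks comprise those with few control reads (the wide peak at HES4 and ISG15, the second peak at ISG15, and USP18) and those with 10 or more control reads in 253 bp (UBE2L6 and HERC5). The fragment counts of all 5 peaks have overlapping 95% intervals except those of UBE2L6 and USP18, while the rates ranged from 1.04 to 9.72. These intervals cover counting error only.

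**Figure D2:**
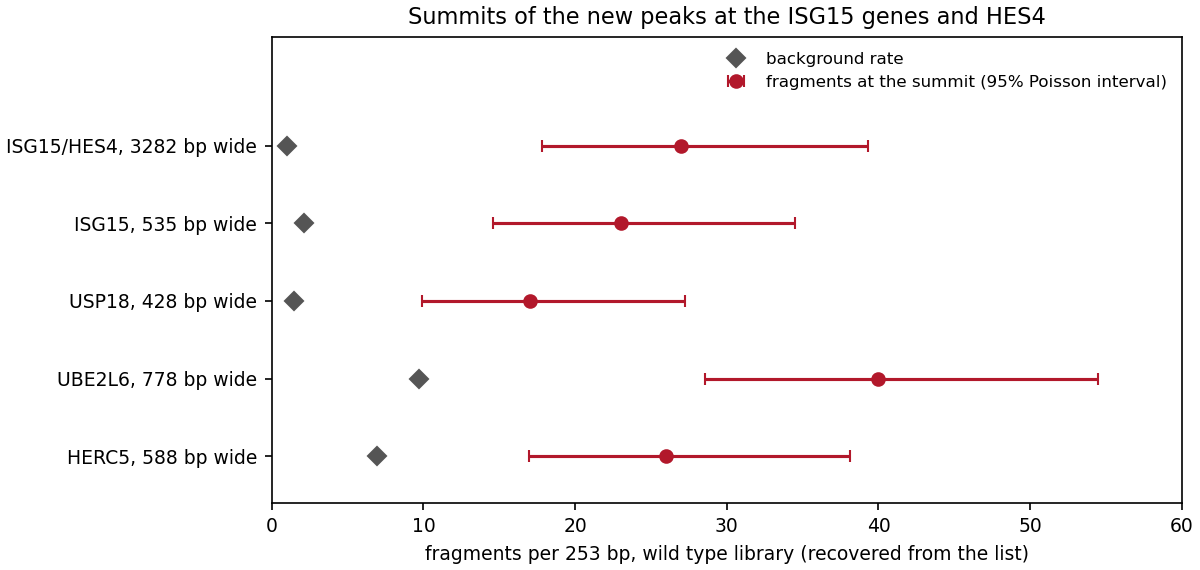
Fragments at the summit with 95% exact Poisson intervals (red) and the background rate (grey diamonds), both in fragments per 253 bp of the wild type library, for the 5 new peaks, ordered by fold. The fragments range from 17 at USP18 to 40 at UBE2L6, and the rates from 1.04 to 9.72.

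The interferon-stimulated response element (ISRE) is a motif through which interferon-activated factors bind promoters. It was searched on both strands as GAAA, any 2 bases and again GAAA, from 250 bp before to 50 bp after the canonical start site. Of the 19881 coding promoters, 3.29% held a match, and of the 10 genes ISG15, HERC5 and USP18 did. No match was found in the window of UBE2L6, UBA7 or any of the neighbours. The stretches of ISG15 and HERC5 are given as 30 bases each, with the matching runs in capitals. The ISG15 stretch holds a pair of overlapping matches at −113 and −107 bp relative to the start site, with a CpG inside the run and another just before it.
ISG15: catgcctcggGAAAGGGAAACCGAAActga
HERC5, distal pair: acagTTTCCTTTTCCTTTTCgattccgccc
HERC5, proximal: aaacattatgTTTCGTTTTCcactggagct

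The USP18 matches began at −110 and −91 bp relative to the canonical start site, and both lay in the new peak, 11 bp and 8 bp from its summit. At HERC5 the matches began at −125, −119 and −74 bp. They lay just inside the upstream edge of the peak, 492 bp to 543 bp from its summit. The ISG15 matches lay in no new peak. These are matches of letters and not measured binding sites.

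The neighbours of ISG15 include very CpG-rich promoters, and HES4 was the 1 of the 5 with a new peak. Of all coding promoters, 0.493% had more CpGs than HES4, 1.49% more than KLHL17 and 2.14% more than AGRN. HES4 (250 CpGs in 2001 bp), KLHL17 (225) and AGRN (216) belong to the class of 200 CpGs or more, of which 78.8% of 779 promoters had one (75.8% to 81.6%). AGRN encodes agrin, a proteoglycan that organizes the neuromuscular junction. Its CGI at chr1:954769-956343 holds 204 CpGs, and the nearest new peak to any of its 9 start sites was 17638 bp away. KLHL17, a kelch-repeat protein, and PLEKHN1 both start in a CGI of 8341 bp with 656 CpGs at chr1:894314-902654, which had no new peak. The nearest one to KLHL17, with a fold of 2.80, ended 7968 bp upstream of its start site. PERM1, a regulator of muscle metabolism, has no CGI at its canonical start site, 95 CpGs in 2001 bp, and a CGI of 35 CpGs within 1000 bp. Its start site at 912021 has 136 CpGs in 2001 bp and a CGI of 248 CpGs, also without a new peak. The shares of the CpG classes of the 5 neighbours add up to 3.38 promoters, and 1 had a peak. For ISG15 and its enzymes, they add up to 1.999, and 3 had one. With 5 genes in each group, these are descriptions only. Because the list holds new peaks only, a missing entry does not show that a promoter was unmethylated. The methylation of these promoters in untreated cells was not examined here.

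**Figure D3:**
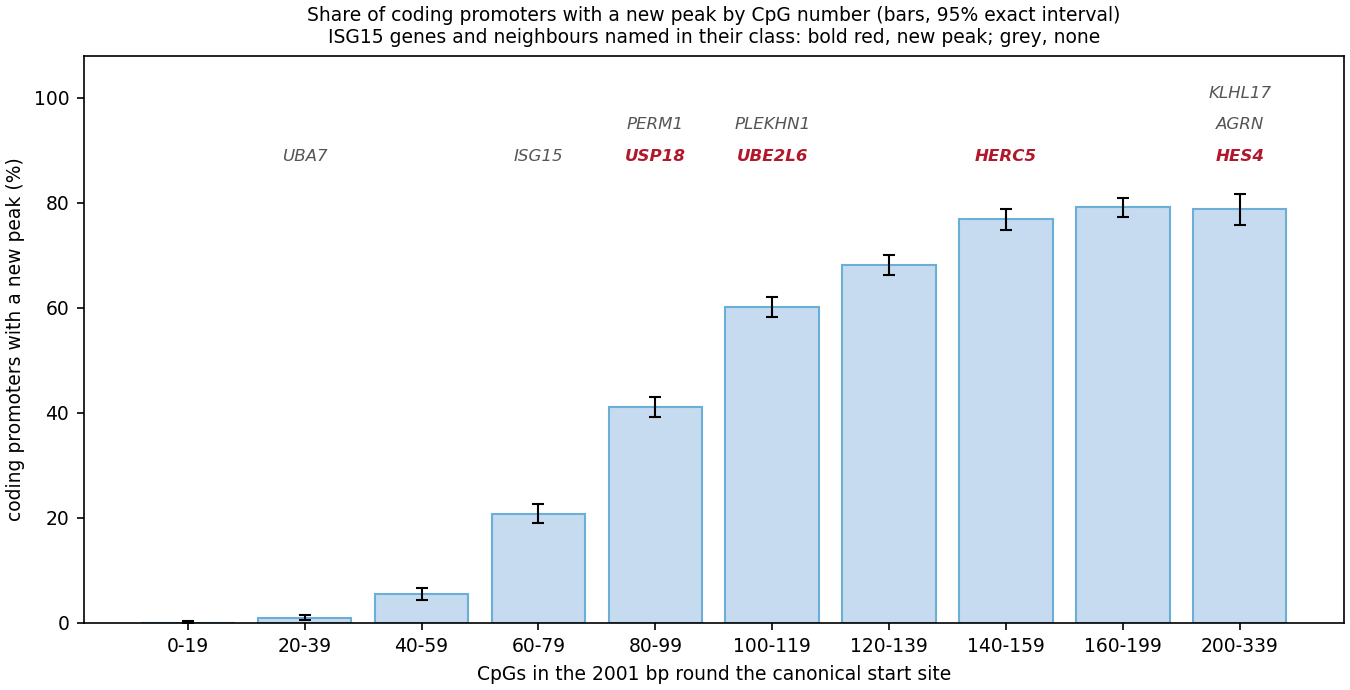
Share of coding promoters with a new peak within 1000 bp of the canonical start site (bars, percent, with 95% exact binomial intervals) by the number of CpGs in the 2001 bp around it. The 10 genes are named above their class, in bold red with a new peak and in grey without one. The shares range from 0.0512% to 79.2%, and KLHL17 and AGRN had no peak in a class where 78.8% did. A missing new peak is not a measurement of methylation.

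Within 100000 bp of the canonical ISG15 start site, 7 new peaks were listed, with folds from 2.80 to 13.8 and a median of 4.21. Of the 36 CGIs in this window 4 overlapped a new peak, or 11.1% (3.11% to 26.1%), against 19.4% of the 51437 CGIs of the genome. By stricter CGI criteria (GC of 55% or more, observed/expected CpG from 0.65 and a length from 500 bp) it was 4 of 9, or 44.4% (13.7% to 78.8%), against 49.9% of 17051 in the genome. All 4 had at least 100 CpGs. Of the 11 such CGIs in the window, 36.4% had a peak (10.9% to 69.2%), against 65.4% in the genome. In the stretch without a peak around ISG15 there were 12 CGIs, of which 3 had 100 CpGs or more. The largest of these, with 220 CpGs at chr1:967967-970238, covers the AGRN start site at 969486. Further out, SAMD11 had 3 new peaks, the highest with a fold of 5.67. NOC2L, a nucleolar protein, had 1 in its body with a fold of 2.80, and RNF223 had none.

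**Figure D4:**
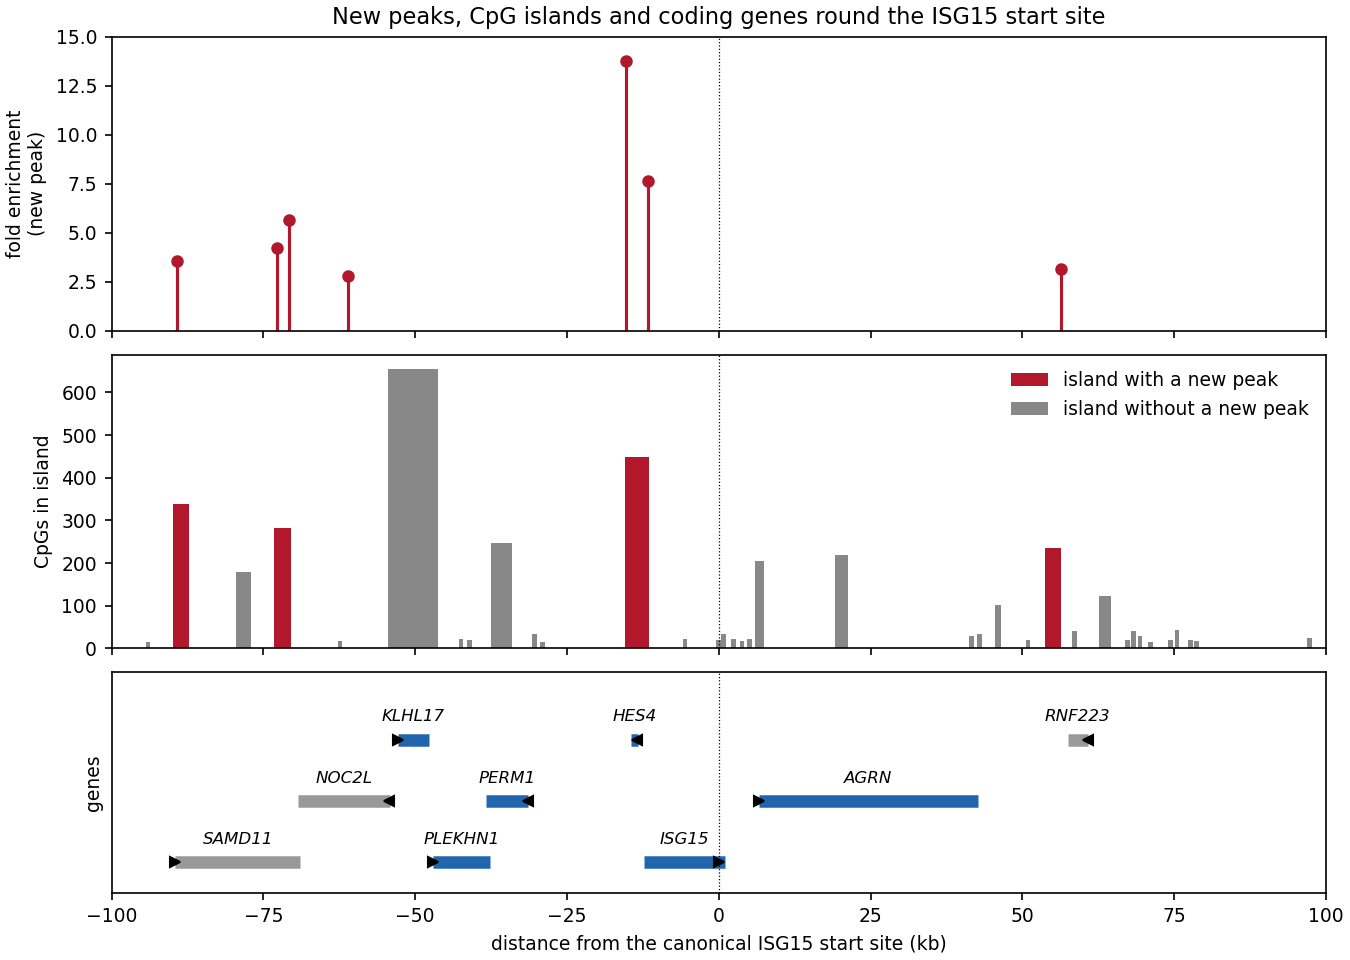
Fold enrichment of new peaks (top), CpGs per CpG island (middle, red with and grey without a new peak, very short islands drawn wider for visibility) and coding genes (bottom, blue for ISG15 and its 5 neighbours described here, grey for others, arrowheads at canonical start sites) against the distance from the canonical ISG15 start site in kb. The highest peak, with a fold of 13.8, lies at HES4, and between the second peak, 11419 bp upstream of the ISG15 start site, and the one 56127 bp downstream there is none.

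Beyond these genes, new peaks were listed at 26 of 39 genes of wider lists, or 66.7% (49.8% to 80.9%), against 48.5% of all coding genes. At their canonical start sites it was 21, or 53.8%, against 42.1%. The promoters on these lists had a median of 110 CpGs in 2001 bp, and 39.7% of all coding promoters had more than 110. Among other enzymes reported to act on ISG15, 6 of 8 had a peak, or 75% (34.9% to 96.8%). The highest folds were 17.6 at USP13, 14.0 at the ligase TRIM25 and 10.9 at the ligase ARIH1, and USP5 and USP21 had none. HERC6, the neighbour of HERC5 on chromosome 4, had a fold of 10.5 from 16 fragments (9.15 to 26.0) over a rate of 0.615. HERC5 had more fragments, 26, with an overlapping interval, and a rate of 6.94.

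For the interferon receptor and its signalling chain, the count was 6 of 10, or 60% (26.2% to 87.8%), against 48.5% of all coding genes. The highest fold was 13.7 at the kinase JAK1, which had 4 peaks. Within 1000 bp of the canonical JAK1 start site the fold was 11.8. IFNAR2, a receptor subunit, and the transcription factor IRF1 had a fold of 11.2 each. STAT2, IRF9, TYK2 and IRF7 had no new peak. Of these, STAT2 and IRF9 belong to the complex that binds the ISRE. Of 8 other E1 enzymes, 4 had a peak, or 50% (15.7% to 84.3%). Among them were UBA2 with a fold of 8.69 and SAE1 with 6.39. UBA1, an E1 of ubiquitin encoded on the X chromosome, UBA3, UBA6 and ATG7 had none.

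Among the other HERC genes 4 of 5 had a peak, or 80% (28.4% to 99.5%), HERC6 (10.5), HERC3 (10.4) and HERC4 (8.79) leading, and HERC2 had none. Of the other HES genes, 5 of 6 did, or 83.3% (35.9% to 99.6%). Both intervals include the 48.5% of all coding genes. The highest folds were 16.8 at HES7, 11.2 at HES1 and 5.82 at HES6, while HES2 had no peak with 204 CpGs in 2001 bp. HES4, with 13.8, thus stood between HES7 and HES1.

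**Figure D5:**
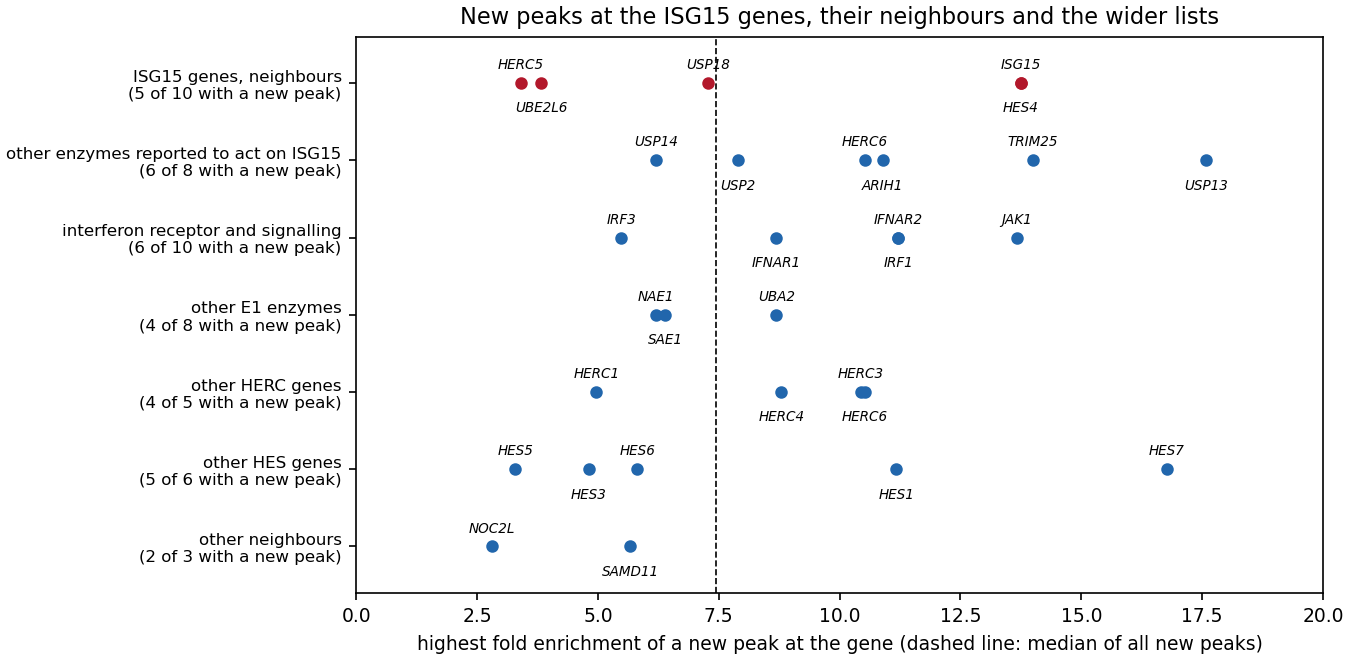
Highest fold enrichment of a new peak at each gene (points, linear axis) for the ISG15 genes and neighbours (red) and the wider lists (blue). Genes without a new peak are counted in the row label only, and 2 genes with a new peak are counted but not drawn. The dashed line is the median fold of all new peaks, 7.45, above which ISG15 (through its upstream start sites) and HES4 lie, while USP18, UBE2L6 and HERC5 lie below it.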

How the data were processed

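Per the methods, the authors mapped single-end reads to hg19 with Bowtie2 on Galaxy, and the submitters' notes also name MACS2. Its version and settings are not given in the sources used here. The deposited list of new peaks gives for each peak a score (the −log10 q times 10, rounded down, not used further), a fold that is a ratio of fragments at the summit to a background, and p- and q-values, each as −log10. These deposited values were used only within the list.

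Genes and start sites were those of GENCODE release 44 lifted to hg19, for the 19881 protein-coding genes with a canonical transcript on chromosomes 1 to 22, X and Y. CGIs were rebuilt from unmasked hg19 sequence (over 200 bp, GC at least 50%, observed/expected CpG over 0.6). Fragments k and the background rate were recovered from the fold, (k + 1)/(rate + 1), and the Poisson p-value, whose −log10 was met within 0.000403 in each peak. The median fragment number of 18 limits precision. Intervals are 95% exact binomial or Poisson ones, and no p-value was computed.

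The genes and lists were chosen with earlier results of these data known. The genes named are the 10 genes, up to 3 of each wider list with the highest fold and 3 at promoters with as many CpGs as ISG15. Others were named after their values were seen. Some items that the rule selects, and a promoter sequence, are not reported here. Alternatives covered peak thresholds, distances, start sites, gene bodies, overlap and CGI criteria. Both steps were tested on simulated data. Software was Python 3.11.15, with pandas 2.3.3, numpy 2.4.6, numba 0.67.0, scipy 1.17.1 and matplotlib 3.10.9. Sequences were read with samtools 1.23.1 and copies sought with blastn 2.17.0.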

Additional observations from a re-analysis of the deposited data

How the results depend on the processing

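With peaks below the median fold left out, new peaks were found at 2 of the 10 genes (2 peaks), against 5885 coding genes, or 29.6%. They were also found at 16 genes of the wider lists (41.0%) and 13.1% of promoters with about as many CpGs as ISG15. Of CGIs near ISG15, 2.78% had one (11.3% of all CGIs). With a −log10 q of at least 10, 3 of the 10 genes (ISG15, USP18 and HES4, with 3 peaks) remained listed. So did 5746 coding genes, or 28.9%, and 17 genes of the wider lists, or 43.6%. Both settings use fewer peaks by construction. The share of promoters with about as many CpGs as ISG15 was 29.7% when CpGs of the 2001 bp window were counted. It was 12.1% with the CGI at the start site, which has 19 CpGs at ISG15, a setting added after the data had been seen. It was not computed by the stricter CGI criteria, under which ISG15 has no promoter CGI. Those criteria left 9 CGIs near ISG15, of which 44.4% had a new peak, against 49.9% of all such CGIs. With at least 50% of a CGI covered, the share near ISG15 was 5.56%, against 13.6% of all CGIs. It was 5.56% of 18 within 50000 bp and 12.3% of 57 within 200000 bp. With distances of 500 bp or 2000 bp, or with start sites only, the same 5 genes had a peak. With the summit required in the region, HES4 was not counted, because the summit of the wide peak lies beyond its 3′ end. No paired analysis was possible because each condition has 1 library, and for the same reason no replicate could be left out. No listed summit at the genome-wide rate had fewer than 6 fragments, and how this floor depends on depth and on the q-value threshold was not tested.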

Other observations

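Across all coding promoters, a new peak was listed at 24.2% of the 654 with an ISRE match (95% exact binomial interval 20.9% to 27.6%) and at 42.7% of the 19227 without one (42.0% to 43.4%). The median number of CpGs in 2001 bp was 54 with a match and 97 without. Within classes of CpG number the intervals overlapped. With 40 to 79 CpGs the shares were 15.4% of 130 (9.66% to 22.8%) and 14.3% of 3391 (13.1% to 15.5%), and with 80 to 119 CpGs they were 44.2% of 138 (35.8% to 52.9%) and 50.5% of 5344 (49.2% to 51.9%). With 120 CpGs or more they were 74.0% of 100 (64.3% to 82.3%) and 74.7% of 6698 (73.6% to 75.7%).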
